A study of Mus musculus with 15 samples.

Results

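In 6 spatial transcript libraries of mouse embryo sections, 672 of 7270 tissue pixels (9.24%) were richest in transcripts of Col2a1, Col9a1, Pax1 and Pax9, genes of cartilage and of the sclerotome from which vertebrae form. All 11 transcript libraries of the study held 17046 tissue pixels. Pixels were taken as tissue where their total reached 0.1 of the 95th percentile of totals in the library. A tissue pixel was chosen when it held at least 3 summed counts of these 4 genes and was in the top 10% of its library by their counts per 10000 counts. The chosen pixels are called marker pixels, and the 6598 remaining tissue pixels of the same libraries are called other pixels.

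The study labelled frozen mouse embryo sections with DNA barcodes delivered through crossed microchannels, so that each crossing forms 1 pixel identified by a pair of barcodes. The 6 libraries used here were 3 sections of embryonic day 10 (E10) and 1 of day 12 (E12), all with pixels 50 µm wide, and 2 sections of day 11 (E11) with pixels 25 µm wide. No treatment, strain, genotype or sex is given in the labels, and the groups differed by stage and pixel width. A pixel is a patch of a thin section that can hold several cells of different types or parts of cells. The labels name neither the embryo nor the body region of a section, so p-values measure the spread between these sections, which may be technical. E11 and E10 also differ in pixel width, so stage and width cannot be told apart in that comparison. E12 had 1 library.

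The sclerotome is the ventral part of each somite. Hedgehog protein from the neighbouring notochord and floor plate induces Pax1 and Pax9 there, and Sox9 with Sox5 and Sox6 then switches on the matrix genes of cartilage. Col2a1 encodes the main fibrillar collagen of cartilage, and Col9a1 encodes a chain of collagen IX, which coats those fibrils. Both collagens are also made outside cartilage: the notochord sheath and the otic epithelium transcribe Col2a1, and pharyngeal pouch endoderm transcribes Pax1 and Pax9.

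Marker pixels numbered 86 of 859, 72 of 829 and 84 of 839 tissue pixels in E10 replicates 1 to 3, 151 of 1704 and 129 of 1504 in E11 replicates 1 and 2, and 150 of 1535 at E12. Their summed counts ran from 324341 (E11 replicate 1) to 720915 (E10 replicate 1) per library. Their median count per pixel was below that of the other pixels in 5 of 6 libraries, from 1987 against 2622 in E11 replicate 1 to 5847 against 11646 in E10 replicate 3, and above it at E12 (3818 against 3531). Marker pixels lay at the tissue edge, with fewer than 8 tissue neighbours, in 25.3% (E12) to 70.8% (E10 replicate 2) of cases, against 28.7% to 42.0% of other pixels. Barcode pairs are shared between libraries by design, because every section used the same grid. A grid position was marked in both libraries of a pair 2 to 28 times, most often in the E11 pair (18.5% and 21.7% of their marker pixels).

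Marker pixels lay next to each other. Of the 4 nearest tissue neighbours of a marker pixel, 51.6%, 40.5% and 42.2% were marker pixels in E10 replicates 1 to 3, 57.0% and 55.9% in the E11 replicates and 53.6% at E12. Around other pixels these shares were 3.97% to 5.73%. In both E11 sections most marker pixels formed 1 touching group, of 108 pixels (71.5%) in replicate 1 and 90 pixels (69.8%) in replicate 2. The largest group held 46.5%, 19.4% and 27.4% of the marker pixels in the E10 sections and 26.7% at E12, where the second largest (35 pixels) was nearly the size of the largest (40 pixels).

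**Figure D1:**
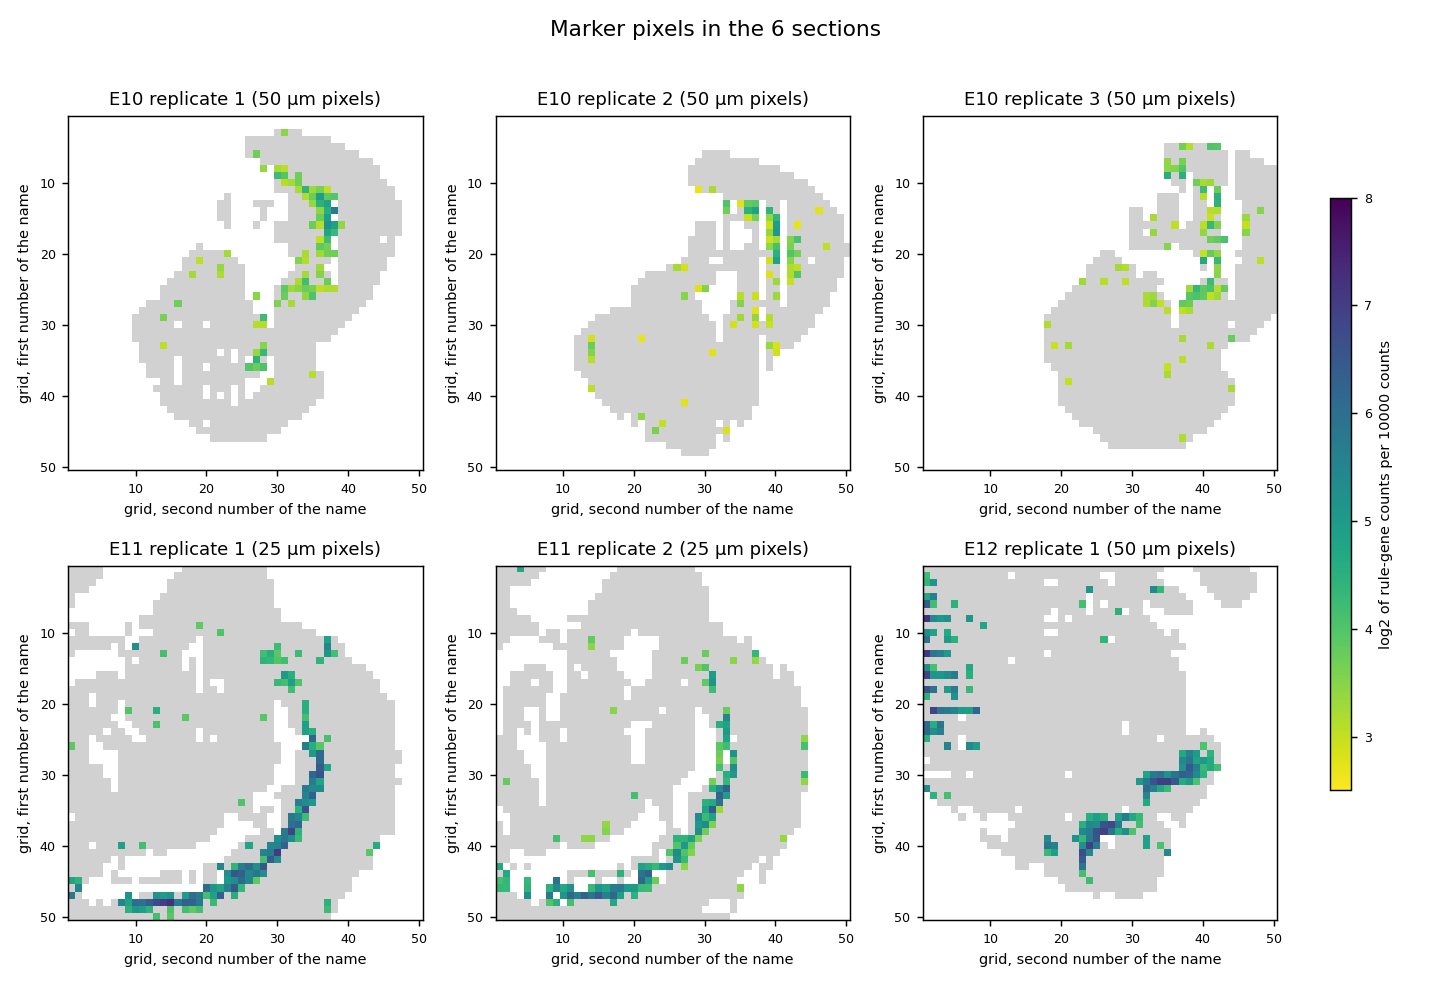
Marker pixels, coloured by the log2 of the summed counts of the 4 rule genes per 10000 counts, among other tissue pixels (grey) on the barcode grid of each of the 6 libraries, with both axes in grid steps. The E11 sections show 1 curved line of touching pixels each, of 108 and 90 pixels, and the E12 section shows groups of 40 and 35 pixels and short rows of marker pixels at its lowest columns.

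The level of the 4 genes that chose the pixels differed by stage, and these values are a description. Levels are given as CPM, the gene's counts scaled to a fixed total of all counts of that kind of pixel in a library. Col2a1 stood at 1058, 743 and 954 CPM in the marker pixels of E10 replicates 1 to 3, at 3617 and 2136 CPM in the E11 replicates and at 4063 CPM at E12. In the other pixels it stood at 141 to 229 CPM in all 6 libraries. Pax1, a sclerotome transcription factor, reached 30.1 to 84.4 CPM in marker pixels at E10, 151 and 125 CPM at E11 and 182 CPM at E12. Its relative Pax9 was at 35.4 to 121 CPM at E10 and 49.3 to 101 CPM at the later stages. Most pixels were chosen by their collagen counts: a count of Pax1 or Pax9 was present in 25.0% to 48.6% of marker pixels, and Pax counts exceeded collagen counts in 1 to 7 pixels per library. The lowest chosen pixel and the highest unchosen pixel lay close together, at 8.15 against 8.09 counts per 10000 in E10 replicate 1 and at 14.5 against 14.4 in E11 replicate 1.

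Each of the 4 genes was then left out in turn and measured in pixels that the other 3 had chosen. All 4 were higher in the chosen pixels in 6 of 6 libraries. Pax1 was 7.36, 9.02, 6.91, 6.58, 9.58 and 4.87 times as high as in the remaining pixels in E10 replicates 1 to 3, E11 replicates 1 and 2 and E12 (log2 difference 2.75, SE 0.19, edgeR adjusted p = 6.55e-12). Pax9 was 3.28 to 9.51 times as high (2.27, SE 0.23, adjusted p = 6.24e-08). Col9a1 differed by 2.87 (SE 0.44, adjusted p = 0.0259), a call that was lost in 5 of the 6 fits that left out 1 library, all but that without E10 replicate 2 (adjusted p = 0.0572 to 0.0895). For Col2a1 the ratio was 2.61, 2.29 and 1.60 at E10, 6.85 and 8.03 at E11 and 11.6 at E12, and the difference of 2.09 (SE 0.47) did not pass (adjusted p = 0.119). Without Col2a1 only 253 pixels met the rule, against 666 to 672 for the other omissions.

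The label of cartilage and sclerotome was checked against genes that took no part in the choice. In the E12 pixels Acan, the large cartilage proteoglycan, stood at 166 CPM against 5.27 in other pixels, Matn4 at 239.6 against 21.4, Matn1 at 38.6 against 2.38 and Col11a2 at 235 against 12.6. At E10 Acan had 0 to 2 counts per library in marker pixels (0, 1.83 and 3.54 CPM), which is under the floor of 3 counts, so that cartilage matrix was not detectable by this gene there. At E11 Acan was present (126 and 73.6 CPM), but so were T and Shh, which mark the notochord, and they are described with their pixels further on. The E10 marker pixels also held Epcam, an epithelial adhesion gene, at 81.8, 45.9 and 30.1 CPM against 18.2, 13.6 and 6.85 CPM. In E10 replicates 1 and 2 they held Oc90, a gene of the otic vesicle, at 30.5 and 198 CPM against 2.07 and 30.1 CPM. Genes of cartilage thus marked the E12 pixels, and the pixels of all stages are called by their rule.

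Marker and other pixels were compared over the 6 libraries with counts summed per library and pixel class, each library serving as its own block. Of 12694 genes tested by edgeR, 386 were higher in marker pixels (3.04%) and 351 were lower (2.77%) at an adjusted p of 0.05, and 547 of these 737 went the same way in all 6 libraries. The median log2 difference over all tested genes was -0.04. In bulk sums of this kind, fewer cells of a type and less RNA per cell cannot be told apart. Genes named from prepared lists were chosen with earlier results of these data known, and a list is described by its count and median beside the values for all genes.

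Foxc1 and Foxc2 were higher in marker pixels at every stage, while Sox5 and Sox6 separated the classes at E11 and E12. Of 11 such genes 8 were tested, 4 were higher, none was lower, and their median difference was 1.13. Foxc1, a forkhead factor of paraxial mesoderm, had 92.9, 75.2 and 92.0 CPM in marker pixels of E10 replicates 1 to 3, 64.7 and 113 CPM at E11 and 111 CPM at E12. In other pixels it had 37.3, 40.8 and 23.2 CPM at E10, 13.1 and 21.7 CPM at E11 and 33.0 CPM at E12. Every marker value was above every other value (log2 difference 1.66, SE 0.16, edgeR adjusted p = 1.32e-07). Its partner Foxc2 behaved alike, with 27.7 to 47.8 CPM in marker pixels and 11.6 to 14.8 CPM in other pixels and no overlap between the classes (1.53, SE 0.20, adjusted p = 3.53e-06). Meox1, a homeobox gene of somites, was higher by 1.38 (SE 0.34, adjusted p = 0.00957) and in 6 of 6 libraries, though not without E10 replicate 3 (adjusted p = 0.0512). Tbx18, a T-box factor of somites, passed narrowly with 0.76 (SE 0.23, adjusted p = 0.0488), was higher in 4 of 6 libraries, and was lost without E10 replicate 2, either E11 replicate or E12 (adjusted p = 0.0777 to 0.287).

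Sox9, the master factor of cartilage, did not pass over all libraries (1.29, SE 0.38, edgeR adjusted p = 0.159). It stood at 257, 260.5 and 267 CPM in marker pixels at E10, 336 and 436 CPM at E11 and 728 CPM at E12, against 156, 147, 214, 86.5, 158 and 103 CPM in other pixels. It was higher in 6 of 6 libraries, by a margin that was wider at E11, where pixels were also narrower, and widest in the 1 E12 library. Its partners Sox5 and Sox6 did not separate the classes over the E10 libraries. Sox5 had 58.4 against 54.9 CPM over them, and was higher in marker pixels in replicate 1 but not in replicates 2 and 3. Sox6 had 47.2, 47.7 and 47.8 CPM in marker pixels and 50.3, 48.4 and 43.1 CPM in other pixels. At E12 Sox6 had 244 against 61.4 CPM and Sox5 had 209 against 39.3 CPM. Runx2, the osteoblast factor, was not tested because it failed the filter on low counts. It had 162 CPM in the marker pixels of E12 against 32.8 CPM, and at most 4.16 CPM in the marker pixels of the other libraries.

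Matrix genes of cartilage were the most strongly higher list, with a median difference of 2.53. Of 17 genes 9 were tested, 5 were higher and none was lower. Col9a3, another chain of collagen IX, had 33.3, 18.3 and 15.9 CPM in marker pixels at E10, 43.2 and 46.6 CPM at E11 and 674 CPM at E12. The other pixels had 7.25, 4.21, 4.27, 2.74, 2.89 and 39.1 CPM (3.19, SE 0.39, edgeR adjusted p = 0.00304). Within each of the 6 libraries the marker value was the higher, although the other pixels of E12 were above the marker pixels of E10. Col9a2, the remaining chain of that collagen, was higher by 2.85 (SE 0.40, adjusted p = 0.00587), from 9.17 against 6.12 CPM in E10 replicate 2 to 355 against 27.6 CPM at E12. Col27a1, a cartilage fibrillar collagen, was higher by 1.73 (SE 0.20, adjusted p = 1.52e-06), with 23.0 to 211 CPM against 9.97 to 45.9 CPM.

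Papss2, which makes the sulphate donor for proteoglycans, had 12.5, 5.50 and 10.6 CPM in marker pixels at E10, 27.7 and 34.3 CPM at E11 and 289 CPM at E12, against 4.61, 4.59, 3.87, 1.48, 2.20 and 22.3 CPM. Its difference of 2.69 (SE 0.53, edgeR adjusted p = 0.0262) was lost without E11 replicate 1 or 2 (adjusted p = 0.0824 and 0.0789). Col11a2, a collagen XI chain, had 12.5, 18.3 and 1.77 CPM at E10, 268 and 101 CPM at E11 and 235 CPM at E12, against 2.04 to 12.6 CPM. It was lower in marker pixels in E10 replicate 3 and higher elsewhere (3.87, SE 0.67, adjusted p = 0.0333), and was lost without E10 replicate 1 or 2, E11 replicate 2 or E12 (adjusted p = 0.0554 to 0.118). Col11a1, the other main chain of collagen XI, was higher in 6 of 6 libraries without passing (2.53, SE 0.52, adjusted p = 0.064). Hapln1, the link protein that ties proteoglycan to hyaluronan, was not higher in the marker pixels of E10 replicates 1 and 2 (25.0 and 49.5 CPM against 35.4 and 61.6 CPM), and had 108, 319 and 281 CPM in the E11 and E12 libraries against 14.8, 41.7 and 20.1 CPM.

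**Figure D2:**
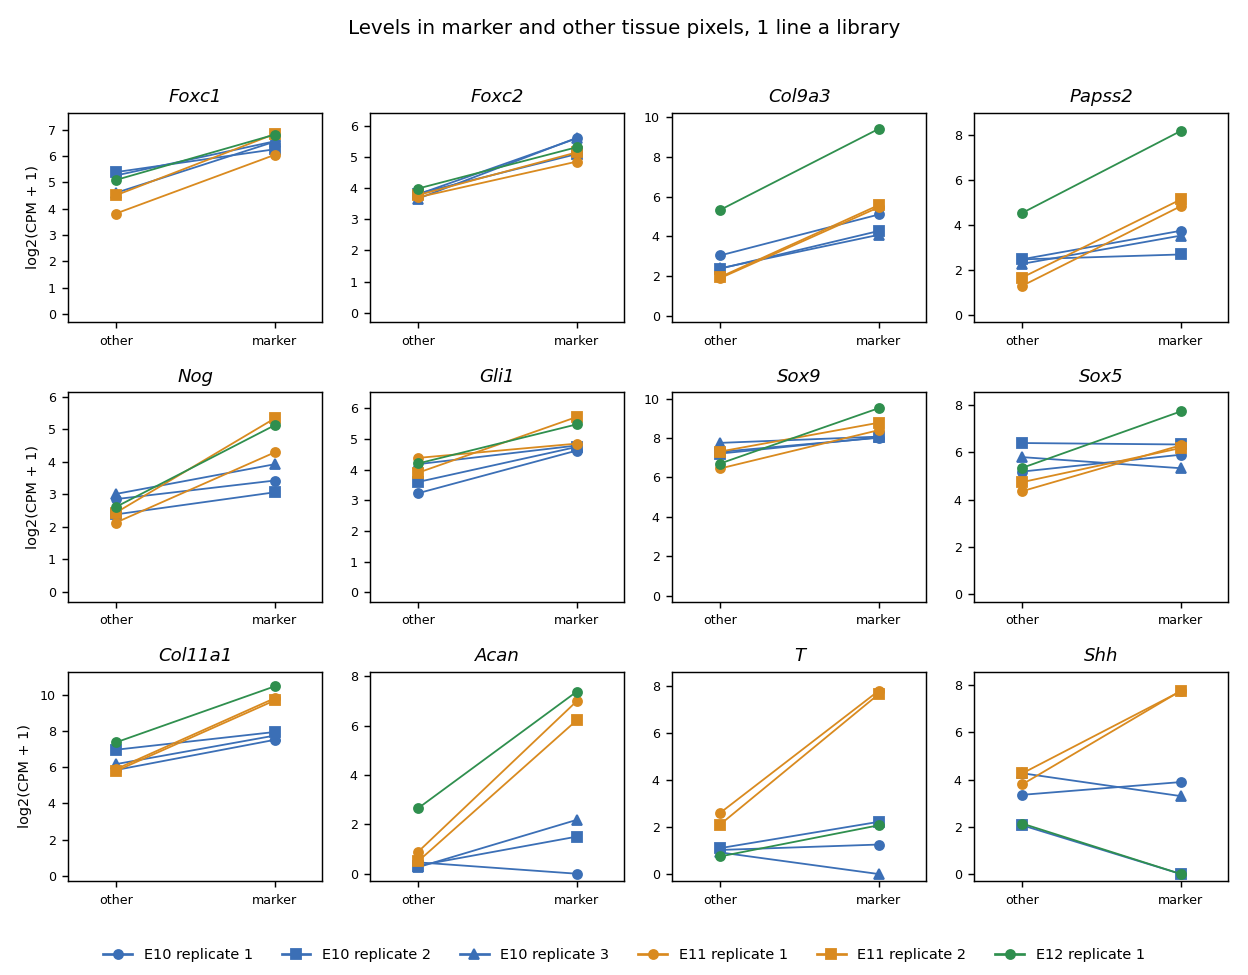
Levels of 12 genes, as log2(CPM + 1), in the other and marker pixels of each library, 1 line a library, coloured by stage. Lines of Foxc1, Foxc2, Col9a3, Papss2, Nog and Gli1 rise in all 6 libraries, whereas those of Acan, T and Shh are steep at E11 (Acan also at E12) and those of Sox5 are flat or falling in E10 replicates 2 and 3.

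Genes that fold and export collagen were higher at every stage. Of 10 such genes, all tested, 7 were higher and none was lower, with a median of 0.72. Plod2, which hydroxylates collagen lysines, had 132, 134 and 72.5 CPM in marker pixels at E10, 120.2 and 191 CPM at E11 and 178 CPM at E12. The other pixels had 29.3 to 58.4 CPM, below every marker value (1.54, SE 0.12, edgeR adjusted p = 1.68e-10). Creb3l2, a factor that raises secretory capacity in chondrocytes, was higher by 1.42 (SE 0.11, adjusted p = 1.59e-10), and Serpinh1, the collagen chaperone, by 0.64 (SE 0.08, adjusted p = 2.06e-06), each in 6 of 6 libraries. Plod1 (1.03), Sec24d (1.23), a coat protein of collagen export, and P4ha1 (0.73), of proline hydroxylation, also passed. P3h1 (0.71, adjusted p = 0.043) passed with all libraries and was lost in each fit without 1 library except that without E10 replicate 3 (adjusted p = 0.0662 to 0.191). No gene of this list passed for a difference between stages by edgeR or DESeq2, and 3 of 10 had an unadjusted p under 0.05 for E11 and 0 for E12. Over all 12694 genes, 1364 for E11 and 1456 for E12 had such an unadjusted p by edgeR.

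Signalling genes of the skeleton were higher in part. Of 12 genes 7 were tested, 3 were higher and none was lower (median 0.52). Nog, a secreted inhibitor of bone morphogenetic proteins, had 9.71, 7.34 and 14.2 CPM in marker pixels at E10, 18.5 and 39.2 CPM at E11 and 33.8 CPM at E12, against 3.37 to 7.05 CPM in the other pixels (1.82, SE 0.34, edgeR adjusted p = 0.000839). All 6 marker values were above all 6 other values. Fgfr2, a fibroblast growth factor receptor of skeletal precursors, was higher by 0.95 (SE 0.20, adjusted p = 0.0127), though not without E11 replicate 1 (adjusted p = 0.0887). Pth1r, the receptor for parathyroid hormone related peptide, was higher by 0.61 (SE 0.12, adjusted p = 0.00154). Fgfr3, which restrains growth plate chondrocytes, was lower in marker pixels in the E10 and E11 libraries (16.5 to 80.2 CPM against 42.2 to 102 CPM) and higher at E12 (59.5 against 11.2 CPM).

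Of 10 Hedgehog pathway genes, all tested, Gli1, Ptch1 and Smo were higher and none was lower (median 0.32). Gli1, a transcription factor and target of the pathway, had 23.6, 25.7 and 26.5 CPM in marker pixels at E10, 27.7 and 51.5 CPM at E11 and 43.4 CPM at E12, against 8.37 to 19.8 CPM (1.15, SE 0.22, edgeR adjusted p = 0.000696). Ptch1, the Hedgehog receptor and likewise a target, had 141 to 294 CPM against 71.5 to 146 CPM, with overlap only between E10 replicate 2 (141 CPM) and the other pixels of E10 replicate 3 (146 CPM), and was higher by 1.03 (SE 0.14, adjusted p = 0.000117). Smo, the signal transducer, was higher by 0.44 (adjusted p = 0.0163), though not without E10 replicate 1 (adjusted p = 0.123). The co-receptor Gas1 was not higher (-0.35, SE 0.18, adjusted p = 0.371).

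Among connective tissue genes, 3 of 11 fibrillar collagen genes were higher and none was lower (median 0.52). Col5a1, which starts collagen fibrils, was higher by 1.02 (SE 0.14, edgeR adjusted p = 5.21e-05), and Col1a2, of collagen I, by 0.52 (SE 0.10, adjusted p = 0.00286). Lum, a proteoglycan of collagen fibrils, passed by 0.70 (adjusted p = 0.0222) and was lost without E10 replicate 2 or 3 or either E11 replicate (adjusted p = 0.0522 to 0.118). In the list of limb and facial mesenchyme 10 of 12 genes were tested and 2 were higher, Twist1 (0.82, adjusted p = 0.00768, lost without E10 replicate 1, adjusted p = 0.0919) and Twist2 (1.20, adjusted p = 0.0306, lost without E10 replicate 1 or 3 or E12, adjusted p = 0.0758 to 0.208), and DESeq2 called 1 of the 10. Neither tested tendon gene passed by edgeR or DESeq2 (0 of 2 at an unadjusted p under 0.05, against 2183 of all 12694 genes by edgeR). In the skeletal muscle list Pax3, of the dermomyotome and dorsal neural tube, was lower in 6 of 6 libraries (-1.33, SE 0.17, adjusted p = 3.28e-06), at 8.04 to 36.1 CPM against 14.0 to 79.8 CPM, and the other 3 tested genes did not pass.

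Genes of the nervous system were lower. All 7 neuron genes passed as lower by edgeR (6 by DESeq2), with a median of -0.64, and 7 of 8 neural progenitor genes did so (6 by DESeq2), with a median of -0.78. Of these, Nefl was lost without E10 replicate 1 (edgeR adjusted p = 0.0936), Nefm without E10 replicate 1, either E11 replicate or E12 (adjusted p = 0.0785 to 0.217) and Msi1 without any 1 of the E10 and E11 libraries (adjusted p = 0.0623 to 0.211). Elavl3, an RNA-binding protein of neurons, had 95.7, 106 and 253 CPM in marker pixels at E10, 30.8 and 27.0 CPM at E11 and 24.1 CPM at E12, against 205, 199, 369, 100.0, 114 and 56.3 CPM (edgeR adjusted p = 2.26e-05). It was lower in 6 of 6 libraries, and its relative Elavl4 was lower by 0.96 on the log2 scale (-0.96, adjusted p = 1.7e-06). Hes5, a Notch target of neural progenitors, was lower by 1.31 on the log2 scale (-1.31, SE 0.16, adjusted p = 1.62e-06). Liver genes were lower in 3 of 5 tested, and these rest on E11 and E12, since Afp and Alb had at most 3.54 CPM in any E10 sum. Afp, the main fetal plasma protein, had 200.4, 238 and 299 CPM in the marker pixels of E11 and E12 against 738, 1174 and 2162 CPM (-2.46, SE 0.17, adjusted p = 5.81e-07).

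None of 9 red cell, 7 endothelial, 7 heart muscle or 8 cell cycle genes passed over the 6 libraries by edgeR or DESeq2, in either direction. At an unadjusted p under 0.05 edgeR had 5 of the red cell genes, 4 of the cell cycle genes and 0 of the other lists. Over all tested genes it had 2183 of 12694 at that threshold. The red cell genes had a median of -0.77. Of 6 tested epithelial genes Krt18, a keratin also made by the notochord, passed (1.29, SE 0.30, edgeR adjusted p = 0.0441), with 17.7 against 29.3 CPM at E12 and higher values in the marker pixels of the other 5 libraries. Its call was lost in 5 of the 6 fits without 1 library, all but that without E12 (adjusted p = 0.122 to 0.17), and without pixels that held T or Shh its difference was 0.56 (adjusted p = 0.412). In the pharyngeal pouch list Tbx1, of pharyngeal mesoderm, endoderm and otic epithelium, had 51.3, 38.5 and 28.3 CPM at E10, 21.6 and 29.4 CPM at E11 and 8.04 CPM at E12, against 4.59 to 7.90 CPM in other pixels (2.18, SE 0.27, adjusted p = 1.52e-06). All 6 of its marker values were above all 6 other values, narrowly so at E12. In the otic list Sox10, of the otic vesicle and neural crest, passed (1.28, SE 0.30, adjusted p = 0.00607, lost without E10 replicate 1, adjusted p = 0.0561).

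Epithelial transcripts moved with the marker pixels at E10, and otic transcripts did so in E10 replicates 1 and 2 but not in replicate 3. The 6 otic genes summed to 73.5, 271 and 38.9 CPM in the marker pixels of E10 replicates 1 to 3, against 31.1, 63.0 and 45.1 CPM in other pixels. The 7 epithelial genes summed to 145 to 254 CPM in the marker pixels of the E10 libraries against 42.8 to 69.4 CPM in other pixels, with none of the 7 at 0, and to 922, 365 and 45.0 CPM in E11 replicates 1 and 2 and E12 against 160.5, 85.4 and 132 CPM, with 1 of the 7 at 0 in each of these marker sums. A count of Epcam, Cdh1 or Oc90 was found in 32.6%, 25.0% and 16.7% of marker pixels in E10 replicates 1 to 3, against 21.7%, 25.0% and 10.2% of other pixels, which held more counts per pixel. When these pixels were left out, Tbx1 (2.10, edgeR adjusted p = 7.44e-06) and Foxc1 (1.72, adjusted p = 1.55e-07) still passed, and Sox10 did not (0.81, adjusted p = 0.246).

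**Figure D3:**
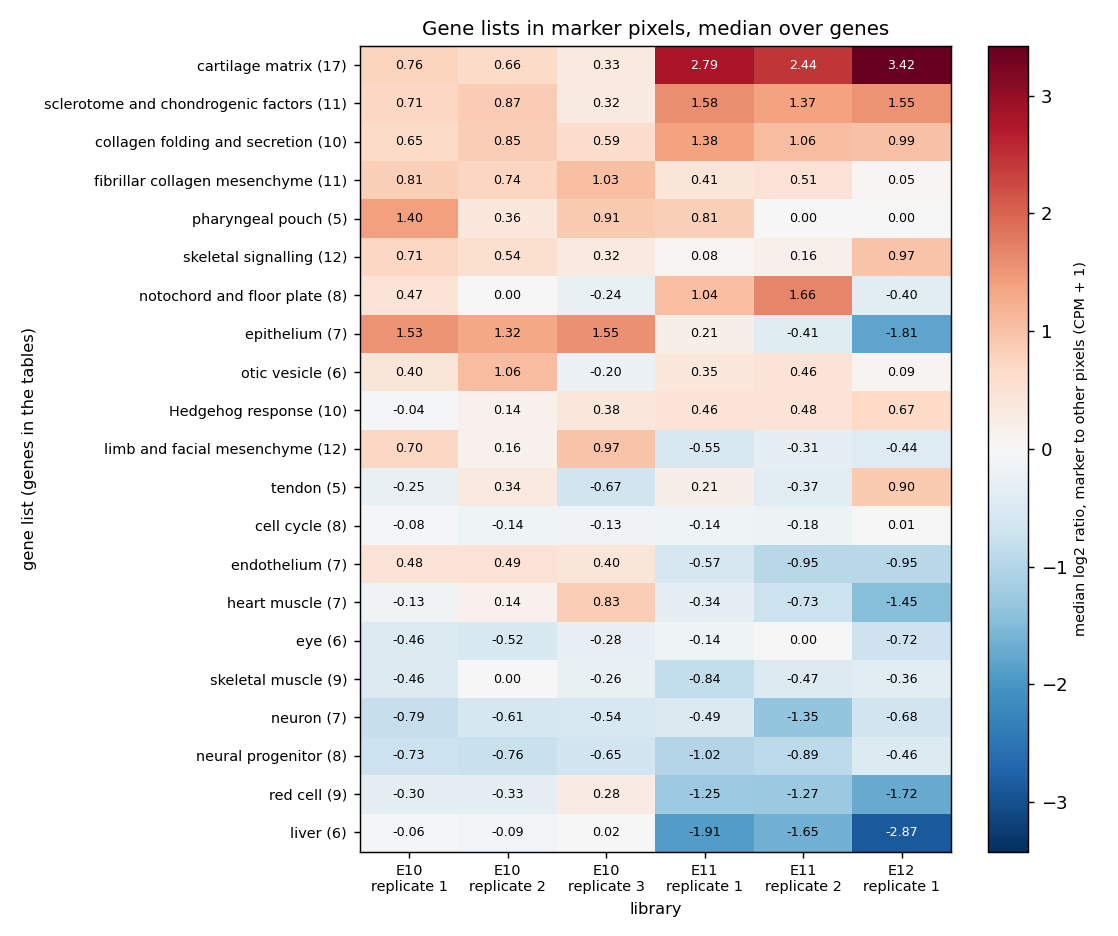
Median over the genes of each list of the log2 ratio of (CPM + 1) in marker against other pixels, by library. Cartilage matrix genes run from 0.33 to 0.76 in the E10 libraries and from 2.44 to 3.42 at E11 and E12, neural lists are below 0 in all 6 libraries, and the epithelial list is above 1.3 at E10 and at -1.81 at E12.

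Beyond the lists, 12 genes in each direction were named by the size of their difference among calls with the same direction in all 6 libraries. Fam101a, an actin regulator of chondrocytes, was higher by 2.64 (SE 0.33, edgeR adjusted p = 3.53e-06), with 6.94 to 93.3 CPM against 3.20 to 6.98 CPM, the ranges touching at their ends. Has2, which makes hyaluronan, had 30.5, 34.9 and 33.6 CPM at E10, 30.8 and 51.5 CPM at E11 and 19.3 CPM at E12, against 3.37 to 9.70 CPM, and did not overlap between classes (2.18, SE 0.26, adjusted p = 8.02e-07). Cspg4, a transmembrane proteoglycan, was higher by 1.99 (SE 0.17, adjusted p = 1.87e-09). The remaining higher genes were Col9a3, Col9a2, Papss2 and Tbx1, given above, and Bmp3, Pde11a, Adamtsl1, Angptl1 and Itga11, at 1.97 to 2.35. In some libraries their direction rests on few marker counts. Bmp3 had 1 in E10 replicate 1, Pde11a had 2 in E10 replicate 3 and 2 at E12, and Itga11 had 3 at E12. At E12 the margins of Bmp3 (8.04 against 7.66 CPM) and Itga11 (4.82 against 4.25 CPM) were small. Bmp3 and Adamtsl1 were lost without E10 replicate 2 (adjusted p = 0.0512 and 0.0563) and without E11 replicate 2 (adjusted p = 0.0936 and 0.054).

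The 12 genes named as lower were Itih2, Apoa1 and Rbp4, genes of secreted plasma proteins, Pax6 and Neurod4, of neural cells, Gata1, of red cells, and Kcnk10, Ccsap, Klhl32, Unc79, Napepld and Clvs1. The first 3 of these had no count in any E10 marker sum and at most 17 counts in an E10 other sum, levels below the floor of the marker sums, so that their order at E10 was not measurable and their difference rests on E11 and E12. Itih2 stood at 9.25, 12.3 and 14.5 CPM in the marker pixels of E11 and E12 against 58.4, 79.5 and 193 CPM (-3.34, SE 0.28, edgeR adjusted p = 9.42e-10). Kcnk10, Klhl32, Unc79 and Clvs1 had 0 or 1 count in each marker sum of E11 and E12. Their levels in other pixels there passed the marker floor only for Kcnk10 in E11 replicate 2 and for Unc79 and Clvs1 at E12. Elsewhere at those stages their order was not measurable, and their difference rests largely on E10. Pax6 was lower by 1.63 (SE 0.33, adjusted p = 0.0428) and was lost without E10 replicate 1 or 2, E11 replicate 2 or E12 (adjusted p = 0.0579 to 0.138). Gata1 was lost without E10 replicate 1 or 2, E11 replicate 1 or E12 (adjusted p = 0.0707 to 0.251) and Ccsap without E10 replicate 3 or either E11 replicate (adjusted p = 0.0572 to 0.0656). Kcnk10 and Neurod4 were lost without E10 replicate 1 (adjusted p = 0.0523 and 0.0846), and Klhl32, Unc79 and Clvs1 without E10 replicate 3 (adjusted p = 0.0654, 0.156 and 0.124).

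Depth and position moved with the marker pixels. When every pixel was thinned to 1000 counts, 7382 genes were left to test and 97 were higher and 63 lower. Of the named genes whose difference passed and that could be tested there, 23 still passed and 15 did not, all 38 in their first direction. With interior pixels alone, those with 8 tissue neighbours, 259 genes were higher and 243 lower, and 44 named genes still passed while 15 did not.

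Whether the marker pixels differed between stages was asked by testing the difference of differences. At E11 the excess of marker over other pixels was larger than at E10 for 87 genes (0.685%) and smaller for 112 (0.882%). Of the cartilage matrix list 6 of 9 tested genes had a larger excess at E11 by edgeR and 3 of 9 by DESeq2 (edgeR median 1.82, against -0.08 for all genes), and none had a smaller one by edgeR. The excess of Col11a1 was larger by 2.45 (SE 0.16, edgeR adjusted p = 3.62e-27), of Col11a2 by 3.14, of Hapln1 by 3.05, of Papss2 by 2.83, of Col9a3 by 1.82 and of Col9a2 by 1.75. Among the transcription factors it was larger for Sox9 (0.99, SE 0.17, adjusted p = 1.4e-05), Sox5 (1.54), Sox6 (1.63) and Uncx (2.15), a sclerotome factor whose level in other pixels was lower at E11. In the Hedgehog list it was larger for Ptch1 (0.91) and smaller for Gas1 (-1.24). These calls lean on 2 libraries: the total of 199 genes fell to 60 without E11 replicate 1 and to 58 without E11 replicate 2, and DESeq2 called 59. Without E11 replicate 2, Col9a2, Col9a3, Papss2, Sox5, Sox6, Ptch1 and Gas1 were no longer called (adjusted p = 0.0582 to 0.386), and without replicate 1 neither were Col9a2, Col9a3, Papss2, Sox5, Uncx and Gas1 (adjusted p = 0.0594 to 0.182). Col9a2 was also lost without E10 replicate 2 (adjusted p = 0.0577) and Col9a3 without E10 replicate 1 or E12 (adjusted p = 0.0612 and 0.0617).

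In the list of notochord and floor plate genes 5 of 8 were tested. Over all 12694 genes tested between the classes, 2183 had an unadjusted p under 0.05 by edgeR. For E11 against E10, 2 of the 5 had a larger excess by edgeR, Shh and Foxa1, a forkhead factor lost without E10 replicate 3 or E11 replicate 1 (edgeR adjusted p = 0.433 and 0.383), and 1 by DESeq2, and 0 of 5 passed over all 6 libraries by either tool (1 at an unadjusted p under 0.05 by edgeR). T, the notochord transcription factor brachyury, had 222 and 201 CPM in the marker pixels of the E11 replicates against 5.06 and 3.30 CPM in other pixels, and at most 3.67 CPM in any sum of E10 or E12. Shh, the Hedgehog ligand made by notochord and floor plate, had 216 and 213 CPM against 12.9 and 18.2 CPM at E11, 13.9, 0 and 8.85 CPM in marker pixels at E10, and no count at E12. Its excess was larger at E11 by 4.04 (SE 0.43, edgeR adjusted p = 3.22e-13). Car3, a carbonic anhydrase, had 1132 and 905 CPM at E11 against 33.3 and 20.1 CPM, and 0 to 40.2 CPM in marker pixels elsewhere. The excess of Car3 was larger at E11 by 5.25 (SE 0.36, adjusted p = 7.11e-26). Krt8, a keratin of simple epithelia and notochord, had 647 and 238 CPM against 61.8 and 29.7 CPM (1.40, adjusted p = 0.000238, lost without E11 replicate 1, adjusted p = 0.132).

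A count of T or Shh was found in 44 of 151 marker pixels (29.1%, exact 95% interval 22.0 to 37.1) in E11 replicate 1 and in 34 of 129 (26.4%, 19.0 to 34.8) in replicate 2. Among the deeper other pixels the shares were 4.51% and 7.64%. With every pixel thinned to 1000 counts they were 22.1% against 1.37% in replicate 1, where 11 marker and 170 other pixels were too shallow, and 14.7% against 1.96% in replicate 2. The interval covers counting error only. The split used T and Shh, so their own levels are no result of it, and it was made after the data were seen.

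Cartilage matrix transcripts at E11 were concentrated in the marker pixels with T or Shh. The sum of 8 matrix genes outside the rule (Col9a2, Col9a3, Col11a1, Col11a2, Acan, Hapln1, Matn1 and Matn4) was 3426 CPM in these pixels against 511 CPM in the remaining marker pixels of replicate 1, and 3337 against 491 CPM in replicate 2. The remaining marker pixels were still above the other pixels, which had 87.3 CPM in replicate 1 and 109 CPM in replicate 2. Acan had 328 against 18.9 CPM and 201 against 7.44 CPM, and Col11a2 had 726 against 23.7 CPM and 280.4 against 7.44 CPM. The lower values rest on few counts, 4 of Acan and 5 of Col11a2 in replicate 1. In replicate 2 they are 2 counts each, under the floor of 3 counts (11.2 CPM), so the sizes of these differences are uncertain. Vcan, a proteoglycan of early mesenchyme, ran the other way (690.5 against 1202 CPM and 1661 against 1953 CPM). Pax1 had 79.7 against 189 CPM and 36.0 against 171 CPM, but as a rule gene it is set partly by the choice of pixels, since those with few collagen counts had to hold Pax counts. The pixels with T or Shh held more counts, with medians of 2608.5 against 1780 and 4191 against 2492. At E12, where the same 8 genes summed to 3409 CPM, 1 of 150 marker pixels held a T or Shh count, and 89 (59.3%) held a count of Acan, Matn1 or Matn4, against 9.68% of other pixels (28.9% against 3.55% after thinning).

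Without the pixels that held T or Shh, in marker and other pixels alike, the excess at E11 was still larger than at E10 for Col11a1 (1.15, edgeR adjusted p = 2.13e-05), Sox9 (0.77, adjusted p = 0.0199), Uncx (2.42), Ptch1 (1.11) and Car3 (3.28). It was no longer so for Hapln1 (0.46, adjusted p = 0.822), Col9a2 (0.63), Col9a3 (1.55), Papss2 (2.35), Sox5 (1.22), Sox6 (1.12) and Foxa1 (0.67), the smaller excess of Gas1 (-0.98) was no longer called either, and Col11a2 (-0.47, adjusted p = 0.915) and Krt8 (-0.40, adjusted p = 0.789) changed sign. The number of genes that differed fell from 199 to 99. The comparison over all 6 libraries moved less, with 332 genes higher and 297 lower, and Col9a3 (3.01), Col9a2 (2.62), Papss2 (2.31), Foxc1 (1.65) and Gli1 (1.17) still passed, while Krt18, Twist2, Lum, Tbx18, P3h1, Adamtsl1, Gata1 and Msi1 did not (adjusted p = 0.0528 to 0.412).

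Between E12 and E10, at equal pixel width, the excess was larger for 83 genes (0.654%) and smaller for 206 (1.62%), and the lone E12 library was assumed to vary like the others. Of the cartilage matrix list 7 of 9 genes had a larger excess at E12 by edgeR (median 1.98, against -0.02 for all genes), and DESeq2 called 4 of 9. The 7 were Hapln1 (3.96, SE 0.31, edgeR adjusted p = 3.5e-22), Cnmd (2.99), an inhibitor of vessel growth in cartilage, Papss2 (2.51), Col11a2 (2.16), Col9a3 (1.98), Col9a2 (1.77) and Col11a1 (1.67). The excess of Sox9 was larger by 2.17 (SE 0.19, adjusted p = 2.53e-18), of Sox5 by 2.28, of Sox6 by 1.96 and of Uncx by 1.64. For Uncx the marker level was not higher at E12 (40.2 CPM, against 51.9 CPM over the E10 libraries). Its level in other pixels was lower at E12 (13.1 against 56.0 CPM). For Fgfr3 too the other pixels were lower at E12 (11.2 against 75.0 CPM), with marker pixels at 59.5 against 49.7 CPM. Among receptors Fgfr3 (2.95, adjusted p = 8.62e-09) and Fgfr2 (1.35) had a larger excess, as had the Hedgehog factor Gli3 (0.99), and Wnt5a, a mesenchymal ligand, had a smaller one (-1.26). Uncx was lost without E10 replicate 3 or E11 replicate 2 (adjusted p = 0.148 and 0.0558) and Col11a2 without E10 replicate 1 or 3 (adjusted p = 0.115 and 0.0871). DESeq2 called 84 genes where edgeR called 289.

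Epithelial transcripts were above the other pixels at E10 and below them at E12. The excess was smaller at E12 for Epcam (-4.89), Cdh1 (-3.68, lost without E10 replicate 1, edgeR adjusted p = 0.0774), Krt8 (-3.11) and Krt18 (-2.23), and 5 of 6 tested epithelial genes passed in that direction. Epcam stood at 3.22 CPM in the E12 marker pixels against 23.1 CPM in other pixels, the reverse of its order at E10. Epcam and Cdh1 each had 2 counts in the E12 marker pixels, under the floor of 3 counts, so the sizes of their differences are uncertain. The embryonic globin Hbb-y was at 7731 against 17186 CPM at E12, and 7 of 9 red cell genes had a smaller excess there. In the heart list 4 of 7 genes did, and in the fibrillar collagen list 4 of 11, among them Dcn and Col1a1, which were below the other pixels at E12 (61.1 against 107 CPM and 334 against 396 CPM). No gene of these 4 lists had a larger excess at E12.

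Cartilage matrix levels were lower with each step away from the marker pixels at E12 and, up to 4 steps, in the 5 other libraries. At E12 the 8 matrix genes had 3409 CPM in marker pixels, 600 CPM 1 step away, 345 CPM at 2 steps, 243 CPM at 3 to 4 steps and 172 CPM at 5 or more. In E10 replicate 1 the same steps gave 308, 152, 110.0, 88.0 and 113 CPM, and in E11 replicate 1 they gave 1526, 140.0, 94.6, 81.0 and 65.4 CPM. Foxc1 had 92.9, 64.8, 38.8, 27.2 and 27.3 CPM over these steps in E10 replicate 1 and 111, 48.3, 41.4, 26.9 and 26.8 CPM at E12. Nes, of neural progenitors, ran the other way at E10, with 466 CPM in the marker pixels of replicate 1 and 732 to 884 CPM at 1 step or more. The first step was thus the steepest for the matrix genes in all 6 libraries, and no test was made of these profiles.

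**Figure D4:**
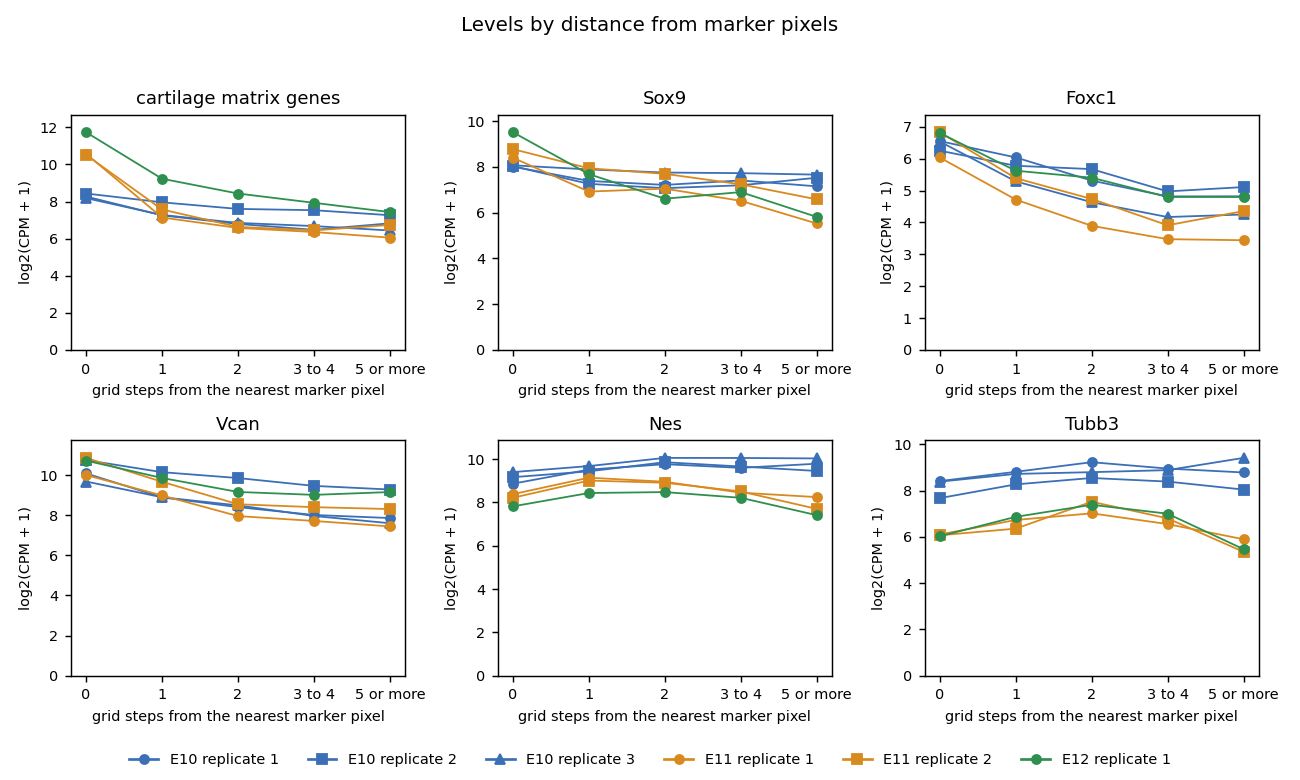
Levels, as log2(CPM + 1), of gene groups in marker pixels (0 steps) and in other tissue pixels by their distance in grid steps from the nearest marker pixel, 1 line a library. Matrix genes, Sox9, Foxc1 and Vcan are highest at 0 steps in all 6 libraries, Nes and Tubb3 are lower at 0 steps than at 2, and the first step down is largest for matrix genes at E11 and E12. In the E11 and E12 libraries Nes and Tubb3 are lower at 5 or more steps than at 0.

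A repeated pattern was seen on the E12 section after the data had been examined, and it is given without a test. Along the 8 lowest grid columns of rows 1 to 26, rows with several marker pixels alternated with rows that had none. In the 15 rows with 2 or more marker pixels (54 of 119 tissue pixels), the 8 matrix genes made up 9.09 to 42.0 counts per 10000, with a median of 20.1. In the 9 rows with no marker pixel (71 tissue pixels) they made up 2.95 to 6.62, with a median of 4.16, and the 2 rows with 1 marker pixel had 2.18 and 3.79. The 2 kinds of row did not overlap, although the choice of rows by Col2a1 and Col9a1 counts favours rows rich in cartilage genes. The marked rows formed 10 runs whose starts were 2.56 rows apart on average. The 50 µm given for this section is the width of a pixel, and no distance between rows was derived from it. Sox9 had a median of 2.49 counts per 10000 in the marked rows and 0.47 in the unmarked ones, with overlap, and the median depth per pixel was 2903 and 3588.5 counts.

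**Figure D5:**
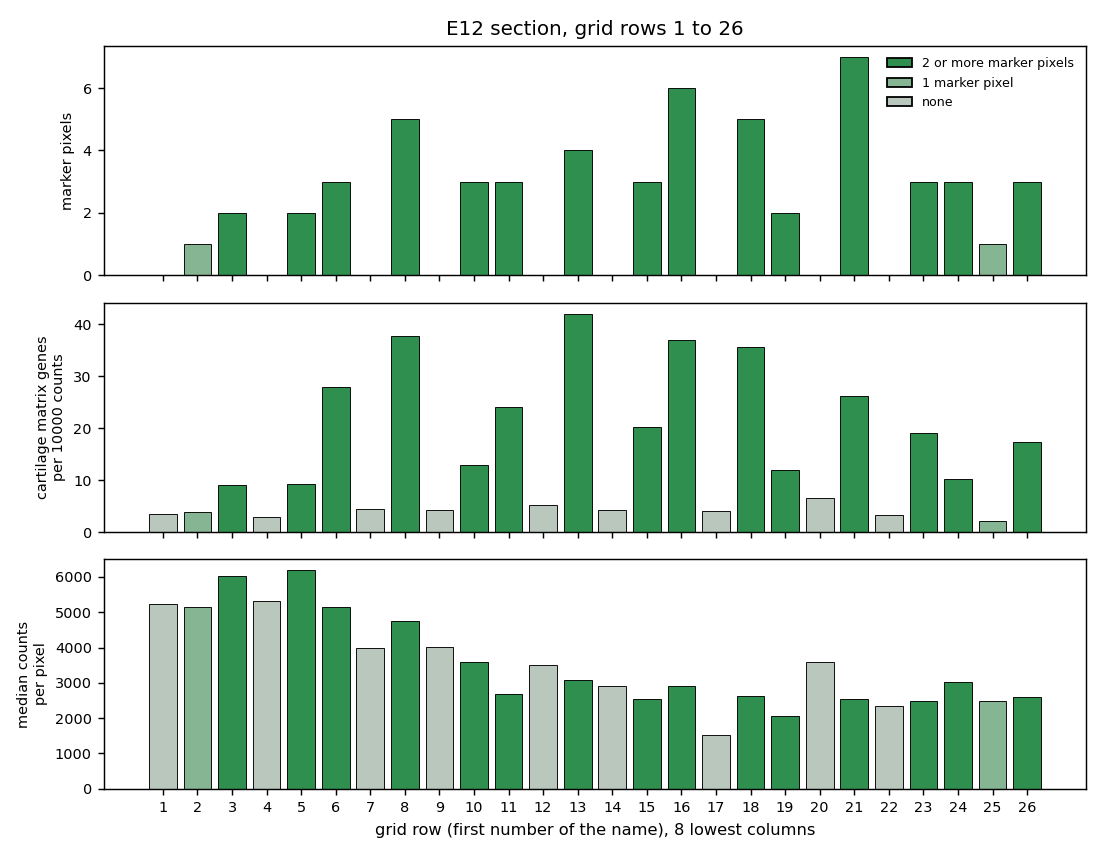
Bars give, from top to bottom, the marker pixels, the counts of the 8 cartilage matrix genes per 10000 counts and the median counts per pixel in each of 26 grid rows of the E12 section, over the 8 lowest columns, shaded by the number of marker pixels in the row. Rows with 2 or more marker pixels reach 9.09 to 42.0 and rows with none 2.95 to 6.62.

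Surface proteins were measured with 22 DNA-tagged antibodies on the sections of E10 replicates 1 and 3. Tags were compared as shares of all tags in marker and in other pixels, with 2 sections and no test. Of the 22 antibodies 15 had the same sign in both sections, 4 higher and 11 lower in marker pixels. Ep-CAM, the protein of Epcam, made up 4.05% against 3.63% of tags in replicate 1 and 4.53% against 3.23% in replicate 3, a mean log2 ratio of 0.32 ± 0.23 (SD, n = 2). The Epcam transcript was higher in the marker pixels of both sections too. All ratios lay between -0.28 and 0.54, which is narrow beside those of the transcripts. The widest was that of CD63, a tetraspanin, with 0.54 in replicate 3 and 0.01 in replicate 1.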

How the data were processed

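Spatial transcript libraries were made from barcoded cDNA of frozen mouse embryo sections. Per the labels, the deposited tables hold counts per gene and pixel, used as raw counts. The submitters' processing notes name CASAVA 1.8.2 and the build GRCh38. The aligner and annotation are not given in the sources used here. Antibody tables hold deposited tag counts for 22 antibodies in 2 sections.

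Marker pixels and gene lists were chosen with earlier results of these data known. The 4 rule genes were left out of the tests on pixels that they had chosen. Where 1 of them was left out of the rule, that gene was tested, with adjustment over 12612 to 12638 genes. Counts were summed per library and class, giving 12 sums from 6 libraries. They were fitted with edgeR 4.0.16 in R 4.3.3 (TMM scaling, filterByExpr, quasi-likelihood test, a term for each library, Benjamini-Hochberg adjustment over 12694 genes). Stage differences came from interaction terms of the same design. The sums of the 6 libraries held 5066401 to 11348089 counts. Named genes outside the lists were the 12 with the largest difference in each direction among calls with at least 100 counts and 1 direction in 6 libraries, and up to 5 in each direction for a stage difference, with at least 30 counts.

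Alternatives were DESeq2 1.42.0, no filter, no library block, other pixel thresholds, thinning to 1000 counts and leaving out each library. After seeing the data, interior pixels alone and the omission of pixels with T or Shh, or with Epcam, Cdh1 or Oc90, were added. On simulated data of 12636 genes for the comparison of marker and other pixels, 85% of 100 genes changed 2-fold and 100% of 100 changed 4-fold were recovered, with 3 false calls. The changed genes were drawn from genes with high counts, and all genes had the same fixed dispersion and the same change in every library. Recovery of genes with few counts, or with differences that vary between libraries, was therefore not measured. Intervals are exact (Clopper-Pearson) and cover counting error only. A planned comparison of pixels led by Pax genes was not made, since no library held 10 of them.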

Additional observations from a re-analysis of the deposited data

Results flagged for a closer look

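Several genes had an excess of marker over other pixels that differed between stages by the interaction test of edgeR, and each difference below is on the log2 scale. No cause of any of them was tested.

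For E11 against E10, where stage and pixel width cannot be told apart, the excess was larger for Car3 (5.25), Fmod (5.16), a proteoglycan of fibrils and tendon, Nptx1 (4.55), Shh (4.04), Apod (3.30), Col11a2 (3.14), Hapln1 (3.05), Foxa1 (2.91), a factor of notochord and floor plate, Papss2 (2.83), Col11a1 (2.45), Uncx (2.15), Col9a3 (1.82), Col9a2 (1.75), Sox6 (1.63), Sox5 (1.54), Krt8 (1.40), Sox9 (0.99) and Ptch1 (0.91). It was smaller for Apob (-5.67, with 3 counts in E11 marker pixels), Epcam (-3.90, with 2 counts there) and Gas1 (-1.24). Ppip5k1, Tbx15, Tnnc2 and Neurod4 had no count in the marker pixels of E11, and with that sum set to 3 counts their excess was lower by at least the sizes of -2.02, -1.93, -1.76 and -1.52. All 4 of these calls were lost without either E11 replicate (edgeR adjusted p = 0.194 to 0.533), those of Tbx15 also without E10 replicate 1 or 2 and of Neurod4 also without E10 replicate 2 or 3. The 13 counts of Tnnc2 in E10 marker pixels all came from replicate 1. Nptx1 was lost without E11 replicate 2 (edgeR adjusted p = 0.47), Apod without E10 replicate 1 or either E11 replicate, Foxa1 without E10 replicate 3 or E11 replicate 1, Epcam without either E11 replicate and Apob without E10 replicate 3 or E11 replicate 2.

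For E12 against E10 the excess was larger for Hapln1 (3.96), Nim1k (3.73), Cnmd (2.99), Fgfr3 (2.95), Papss2 (2.51), Sox5 (2.28), Sox9 (2.17), Col11a2 (2.16), Col9a3 (1.98), Sox6 (1.96), Col9a2 (1.77), Col11a1 (1.67), Uncx (1.64), Fgfr2 (1.35) and Gli3 (0.99). Hoxa7 had no count in E10 marker pixels, and its excess was larger by at least 2.30. The excess was smaller for Epcam (-4.89) and Cdh1 (-3.68), with 2 counts each in E12 marker pixels. It was also smaller for Krt8 (-3.11), Krt18 (-2.23), Spon1 (-2.12), a floor plate gene, and Wnt5a (-1.26). Pros1, Nppa, Perp, Cldn6 and Lgals3bp had no count in E12 marker pixels, with bounds of -3.09, -2.86, -2.59, -2.39 and -2.37. Hoxa7, Nppa and Lgals3bp were lost without E10 replicate 2 (edgeR adjusted p = 0.229, 0.334 and 0.0626).

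Among 67 genes examined, Krt18 had 1 library far from the others: its log2 ratio was -0.70 at E12, and the next lowest library stood at 0.91. Chance sets about 1 in 20 such groups apart.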

How the results depend on the processing

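Counts of genes higher (386), lower (351), and different at E11 (199) and E12 (289) were compared over the alternatives. Labels do not pair the replicates across stages, and the library block pairs the classes within a section: without the replicate block the counts were 4, 0, 1 and 0 (544 genes differed between classes at an unadjusted p under 0.05), and the left-out markers Col9a1 (3.14), Pax1 (2.67) and Pax9 (2.28) no longer passed. DESeq2 gave 370, 209, 59 and 84, and shared 551 of the 737 class calls. With no filter 665 genes were lower, and the median over all genes was -0.22. Thinning to 1000 counts gave 97, 63, 21 and 27. Pixels chosen by Pax1 and Pax9 alone gave 42, 47, 13 and 9. The top 5% of pixels gave 157 genes for E12 and a contact share of 41.3% (52.6% before). Interior pixels gave 111 for E11 and 165 for E12. Omitting pixels with T or Shh gave 99 for E11, and turned Col11a2 (-0.47) and Krt8 (-0.40), neither then called. Without 1 library the counts ran over 256 to 467, 202 to 437, 58 to 194 and 208 to 300, lowest for both classes without E10 replicate 1, with 227 lower genes without E11 replicate 2. Left-out Col2a1 passed with DESeq2 (2.06), with at least 5 counts (2.14) and after thinning (1.97), and ran from 1.79 to 2.33 without 1 library. Col9a1 then ran from 2.58 to 3.14, Pax1 from 2.65 to 2.92 and Pax9 from 2.07 to 2.44. Thinning and filters changed how many genes were tested; other causes were not tested. Acan had 0 to 2 counts in the marker pixels of each E10 library. Median depth there was 5847 to 6980 counts per pixel, against 1987 to 3818 in the marker pixels of E11 and E12. The cause of the low Acan counts was not tested.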
